A study of Mus musculus with 14 samples.

Results

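The ubiquitin-specific protease (Usp) genes are the 56 genes, of 20337 genes with a symbol in the count files, whose symbol is Usp followed by a digit. Each gene was read at its RefSeq transcript with the highest mean count, and 8 of the 56 have further transcripts in the files. Ubiquitin is a small protein that is attached to other proteins and marks them for the proteasome, for sorting between membranes or for a change in activity, and deubiquitinases take it off again. The ubiquitin-specific proteases are the largest family of deubiquitinases and share a papain-like fold with a catalytic cysteine and histidine. A full-grown oocyte is transcriptionally silent and lives on stored mRNA and protein, and protein turnover and chromatin state in it depend in part on which ubiquitin enzymes it has stored. Usp6nl matches the rule by its symbol but encodes a GTPase-activating protein for Rab proteins and is no protease, and Usp39 encodes a spliceosome protein that lacks the active site.

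The samples were full-grown oocytes with an intact germinal vesicle, studied by RNA-seq, which are arrested in the first meiotic prophase and had been freed of their cumulus cells. The females were 4 to 6 weeks old and had received 5 IU of equine chorionic gonadotropin 48 h earlier, and their background was mixed, mostly C57BL6. The question is what oocytes that lack RNA cleavage by AGO2, AGO2 itself or DICER do to these transcripts. Each of the 14 libraries was made from 20 oocytes pooled from 3 mice by the labels, or from 3 or 4 by the methods. Ago2 fl/fl oocytes (3 libraries) carry loxP-flanked Ago2 alleles and served as controls, and their genotype field reads Ago2 wild-type. Ago2 ADH oocytes (3 libraries) came from Ago2 fl/ADH females with 1 copy of a Cre transgene driven by the oocyte promoter of Zp3, so that the catalytically inactive ADH allele, with its changed DDH motif, was the remaining one. Ago2 null oocytes (2 libraries) came from the same crosses. Dicer WT and Dicer KO oocytes (3 libraries each) came from a separate oocyte-specific deletion. Because Zp3-Cre acts in growing oocytes, the surrounding follicle cells keep the genes, and protein made before deletion can persist. The Ago2 ADH and Ago2 null comparisons share the 3 Ago2 fl/fl libraries, and sequencing lane and genotype cannot be told apart in the Ago2 series. In RNA pooled from many cells, fewer cells with a transcript and less of it per cell cannot be told apart.

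Each library held between 29380403 and 58285057 counts on transcripts, where 3 counts are 0.0515 to 0.102 counts per 1000000 (CPM). The Dicer KO libraries were shallower than the Dicer WT libraries, with at most 35777876 against at least 38469087 counts. Ago2 fell in Ago2 ADH (log2 -0.87, SE 0.0879, edgeR adjusted p = 1.27e-07) and further in Ago2 null oocytes (log2 -1.95, SE 0.128, adjusted p = 2.21e-09), whereas the whole-transcript count of Dicer1 rose in Dicer KO oocytes (log2 1.26, SE 0.0629, adjusted p = 6.11e-12). Each also moved in the other series, as Dicer1 was higher in Ago2 ADH (log2 0.67, edgeR adjusted p = 2.11e-10) and Ago2 null oocytes (log2 0.59, adjusted p = 6.41e-08) and Ago2 was lower in Dicer KO oocytes (log2 -0.56, adjusted p = 0.000545). A count over the whole transcript does not isolate a deleted part, so that Dicer1 does not check the Dicer labels, and Dicer KO stands here for the libraries labelled so. All 14 oocyte markers searched were detected, and their sum lay between 12037 and 20214 CPM. The sum of the 10 granulosa and cumulus markers was much lower and moved with genotype. It lay between 77.6 and 84.2 CPM in Ago2 fl/fl, 60.2 and 69.3 in Ago2 ADH, 57.4 and 60.7 in Ago2 null, 96.3 and 105 in Dicer WT and 76.6 and 81.6 in Dicer KO libraries. Most of it came from Cyp19a1 and Nr5a2. Foxl2, a defining granulosa gene, had 0 counts in every Ago2 fl/fl and Dicer WT library and up to 7 in mutant libraries. Kitl, another marker of the list, had 170 to 339 counts in these control libraries. Single markers moved both ways. Fshr had 53, 35 and 58 counts in Ago2 fl/fl and 12, 23 and 6 in Ago2 ADH libraries, and Inha 54, 54 and 22 against 88, 75 and 58. The 3 blood markers found had at most 3 counts each in a library, and the theca and stroma markers summed to between 1.67 and 2.93 CPM. The part of the granulosa signal and of depth in the changes described here was not tested.

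In control oocytes the levels of Usp genes were uneven, with a few abundant genes and many scarce ones. To compare genes, levels are given as CPM per kilobase of transcript. Usp9x, an X-linked deubiquitinase and the counterpart of the fly gene fat facets, had the highest level, at 198, 196 and 199 in Ago2 fl/fl and at 273, 263 and 282 in Dicer WT libraries. It alone held between 33.5% and 34.1% of all Usp counts in Ago2 fl/fl and between 38.4% and 40.1% in Dicer WT libraries. Usp46 followed with 126 ± 2.66 in Ago2 fl/fl (SD, n = 3), and Usp7, which acts on MDM2 and p53, with 96.6 ± 0.543. These 3 genes stood in this order in both control groups. In Ago2 fl/fl no library of one overlapped with the next, whereas in Dicer WT Usp46 at 107 ± 2.22 and Usp7 at 102 ± 3.31 did not differ beyond their spread.

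The next 5 levels in Ago2 fl/fl oocytes lay close together. They were those of Usp38 at 51.5 ± 1.71, Usp28 at 49.3 ± 1.4, Usp19 at 44.6 ± 2.47, Usp16, a histone H2A deubiquitinase, at 43.6 ± 1.59 and Usp34 at 38.8 ± 0.756 (SD, n = 3). The libraries of Usp38 and Usp28 overlapped, as did those of Usp19 and Usp16. At the other end Usp9y, the Y-linked partner of Usp9x, had 0 or 1 counts in the Ago2 fl/fl libraries and Usp17ld had 0. Usp9y, Usp17ld and Usp18 did not pass the filter on low counts in any comparison of a mutant with its control.

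**Figure D1:**
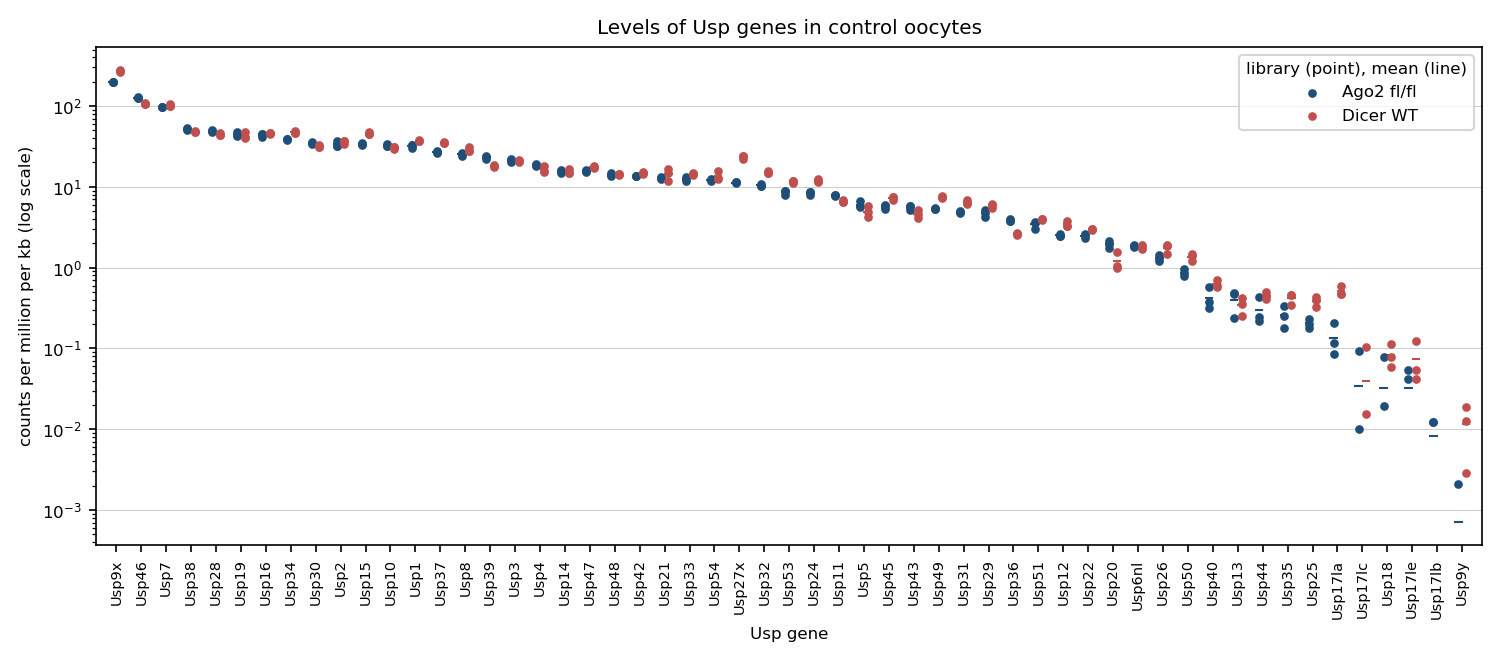
Level of 55 Usp genes in control oocytes, in CPM per kilobase of transcript on a log scale, ordered by the Ago2 fl/fl mean. Points are libraries, short lines are means of 3 libraries and libraries at 0 are not drawn. Usp9x stands highest at 198 in Ago2 fl/fl and 273 in Dicer WT, and the Usp17l genes, Usp18 and Usp9y stand at the low end.

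As a family the Usp genes took a smaller share of the counts in both Ago2 mutants and in the Dicer mutant. The summed level of all Usp genes was 6958 ± 49.4 CPM in Ago2 fl/fl (SD, n = 3), 5797 ± 161 in Ago2 ADH (n = 3) and 5551 ± 70.8 in Ago2 null oocytes (n = 2). It was 8244 ± 103 in Dicer WT and 7086 ± 74.6 in Dicer KO oocytes (n = 3 each). In each comparison every mutant library lay below every control library. The 2-sided exact permutation p was 0.1 for Ago2 ADH, 0.2 for Ago2 null and 0.1 for Dicer KO, the smallest that these numbers of libraries allow. Without Usp9x the sum was still lower, at 4056 ± 74.7 in Ago2 ADH and 3920 ± 104 in Ago2 null against 4608 ± 50.5 in Ago2 fl/fl, and at 4674 ± 70.6 in Dicer KO against 5002 ± 8.81 in Dicer WT, with the same p values.

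Gene by gene, decreases outnumbered increases in all 3 mutants. A gene was called changed at a false discovery rate (FDR) of 1% in the edgeR quasi-likelihood test over all transcripts. Of the 52 Usp genes tested in Ago2 ADH against Ago2 fl/fl oocytes, 17 were lower, 8 were higher and 27 were not called, so that 32.7% were lower and 15.4% higher, where of all 13801 genes tested 19.8% were lower and 21.0% higher (40.9% in either direction). Of 53 tested in Ago2 null oocytes, 21 were lower and 7 higher, or 39.6% and 13.2%, where of all genes 18.7% were lower and 18.6% higher (37.3% in either direction). Of 53 tested in Dicer KO oocytes, 17 were lower and 7 higher, or 32.1% and 13.2%, where of all genes 17.6% were lower and 16.9% higher (34.5% in either direction). The median log2 fold change of the tested Usp genes was -0.13, -0.21 and -0.10 in the order given, and that of all tested genes 0.01, 0.01 and 0.00. The changes were small for most members, and apart from the Usp17l genes the largest decrease was 2.01-fold and the largest increase 3.97-fold. The increases counted here include Usp17lc and Usp17le in each mutant and Usp17lb in Ago2 null and Dicer KO oocytes. These genes passed the filter on low counts through mutant libraries, so that being tested already required a difference.

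Of 52 Usp genes tested in all 3 comparisons, 12 (23.1%) were called lower in each mutant, where 12.2% of 13135 genes were. The Ago2 comparisons share their controls. These members were Usp3, Usp6nl, Usp9x, Usp10, Usp27x, Usp29, Usp33, Usp37, Usp39, Usp45, Usp51 and Usp54. Some of these calls were lost when 1 library was left out, namely those of Usp6nl in Ago2 ADH, Usp39 and Usp45 in Ago2 null, and Usp10 and Usp39 in Dicer KO oocytes. Only Usp17la, Usp17lc and Usp17le were called higher in each (5.77%, against 11.2% of all genes). Usp17lc and Usp17le passed the filter on low counts through mutant libraries, so that being tested already required a difference. Another 18 genes (34.6%, against 45.2%), among them the abundant Usp15, Usp19, Usp28 and Usp38, were called in none of them. Between the Ago2 ADH and Dicer KO comparisons, which have separate controls, 43 of 52 Usp genes (82.7%) had a fold change of the same sign, where 79.1% of 13160 genes did. Spearman's rho of the fold changes was 0.689 over these 52 genes and 0.746 over all genes. Genes are not independent replicates, so no p is given.

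**Figure D2:**
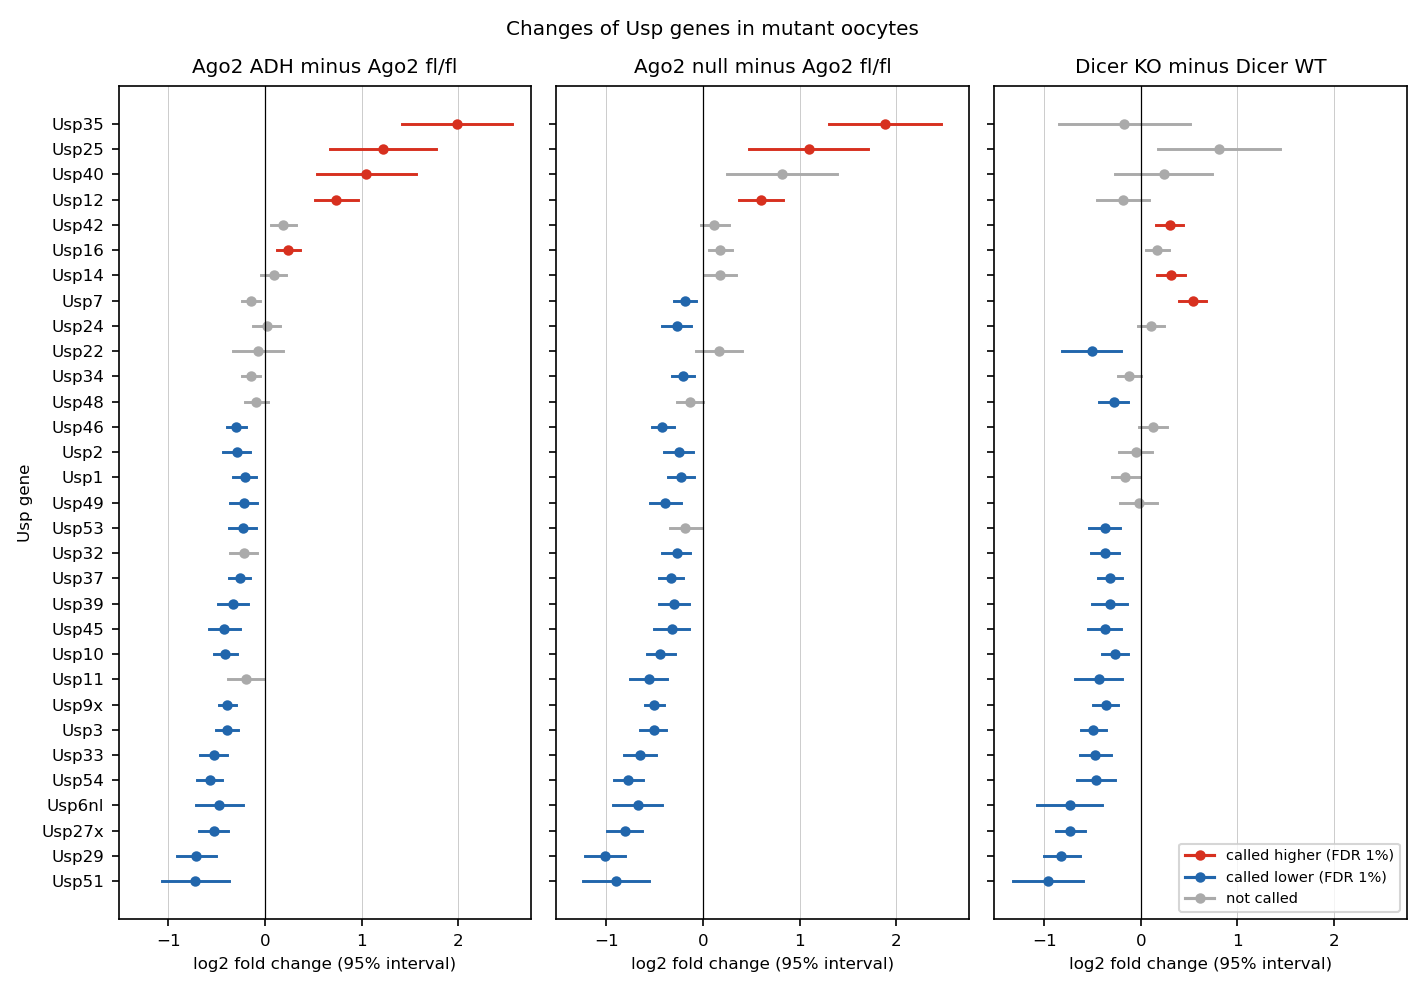
Log2 fold change (points) with 95% interval (lines) of the 31 Usp genes outside the Usp17l group that were called in at least 1 of the 3 comparisons, with 3 libraries per group except 2 for Ago2 null. Red marks genes called higher, blue genes called lower and gray genes not called at an FDR of 1%. Usp51 and Usp29 fell furthest in all 3 panels, and Usp35 and Usp12 are red in both Ago2 panels and gray in the Dicer panel.

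Usp9x, the most abundant member, was lower in every mutant. Its TMM-normalized counts, scaled to the mean library size of the comparison, were 123614, 121673 and 122372 in Ago2 fl/fl and 94313, 88951 and 97899 in Ago2 ADH libraries. The groups did not overlap, and the fall was 1.31-fold (log2 -0.39, SE 0.0433, edgeR adjusted p = 4.86e-07). In Ago2 null oocytes it fell 1.42-fold (log2 -0.50, SE 0.0486, edgeR adjusted p = 2.74e-07). In Dicer KO oocytes its counts were 94241, 87741 and 87672, against 115318, 110283 and 121629 in Dicer WT, a 1.29-fold fall (edgeR adjusted p = 5.91e-05). All of its mutant libraries thus lay below the controls of the same series.

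Among the 11 members that act on histones and chromatin, 4 were lower and 1 higher in Ago2 ADH, 5 lower and none higher in Ago2 null, and 4 lower and 2 higher in Dicer KO oocytes. Of all genes tested, 19.8%, 18.7% and 17.6% were lower and 21.0%, 18.6% and 16.9% higher in the same order. Usp27x and Usp51 led the decreases among these members. Both are X-linked relatives of Usp22 that use the same adaptor proteins, ATXN7L3 and ENY2, as the Usp22 module of the SAGA coactivator. Usp27x had 1908, 1918 and 1918 normalized counts in Ago2 fl/fl and 1348, 1343 and 1285 in Ago2 ADH libraries. It fell 1.44-fold in Ago2 ADH (edgeR adjusted p = 4.87e-06), 1.75-fold in Ago2 null (adjusted p = 6.05e-07) and 1.66-fold in Dicer KO oocytes (adjusted p = 9.46e-08). Its level per length already differed between the control groups of the 2 series, at 11.3 ± 0.101 in Ago2 fl/fl and 23.5 ± 1.1 in Dicer WT oocytes (SD, n = 3). Usp51 fell 1.64-fold, 1.86-fold and 1.95-fold in the same order (edgeR adjusted p = 0.00128, 0.0002 and 0.00014). In the Dicer series its normalized counts were 304, 314 and 324 in WT and 138, 162 and 183 in KO libraries, without overlap.

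Usp22 itself, the autosomal member of this trio, was not called in the Ago2 mutants. Its log2 fold change was -0.07 in Ago2 ADH (95% interval -0.33 to 0.19) and 0.17 in Ago2 null oocytes (-0.07 to 0.41). In Dicer KO oocytes it had 272, 351 and 378 normalized counts against 479, 470 and 471 in WT and fell 1.42-fold (edgeR adjusted p = 0.00756). That call is weak, since it was lost when any of 5 single libraries was left out (adjusted p from 0.0162 without Dicer KO replicate 2 to 0.0408 without Dicer KO replicate 1). For Usp22 the effects of the Ago2 ADH and Dicer KO genotypes were not called different.

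Of the other chromatin members, Usp3, which removes ubiquitin from histones H2A and H2B, fell in all 3 mutants, by 1.43-fold in Ago2 null (4641 and 4422 against 6238, 6501 and 6678 normalized counts) and 1.41-fold in Dicer KO oocytes. Usp49, an H2B deubiquitinase, was called lower in both Ago2 mutants (log2 -0.22 and -0.39). The Ago2 ADH call (edgeR adjusted p = 0.00838) was lost when any single library was left out (adjusted p from 0.012 without Ago2 ADH replicate 2 to 0.0305 without Ago2 fl/fl replicate 3). Moreover, 53.2% of its transcript is shared on the same strand with the gene model Gm20517, so that reads of the 2 cannot be told apart. Usp16, the H2A deubiquitinase, moved the other way. It had 8561, 8179 and 9153 normalized counts in Ago2 ADH against 7022, 7438 and 7390 in Ago2 fl/fl libraries, a 1.18-fold rise (edgeR adjusted p = 0.000822). In Ago2 null and Dicer KO oocytes its log2 fold changes of 0.18 and 0.17 did not pass (edgeR adjusted p = 0.0179 and 0.0241), although both did with DESeq2 (adjusted p = 0.00865 and 0.00881). Usp42 rose 1.23-fold in Dicer KO oocytes (3272, 3535 and 3271 against 2635, 2751 and 2805 normalized counts, edgeR adjusted p = 0.00125). This call was lost without Dicer KO replicate 2 (adjusted p = 0.013).

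The 3 members that bind the WD-repeat protein WDR48 split in the Ago2 mutants. Usp12 and Usp46 encode closely related enzymes that need WDR48 and WDR20 for full activity, and Usp1, which acts on PCNA and FANCD2 in DNA repair, needs WDR48. The coding sequences of Usp12 and Usp46 were identical at 850 of 1113 aligned positions (76.4%), and 43 of the 51 bases around the codon of the catalytic cysteine were the same. These windows are shown because the 2 genes are near copies at the active site and yet changed in opposite directions. They lie at chr5:146763376-146768948 for Usp12 and chr5:74032479-74037044 for Usp46 on the minus strand of GRCm38.p6, each across an intron, and capitals mark the cysteine codon.
Usp12: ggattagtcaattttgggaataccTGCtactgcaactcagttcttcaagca
Usp46: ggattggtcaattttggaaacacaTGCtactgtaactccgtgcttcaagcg

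Usp12, the scarcer of this pair, rose in both Ago2 mutants. It had 560, 551 and 590 normalized counts in Ago2 fl/fl and 1061, 869 and 906 in Ago2 ADH libraries, a 1.67-fold rise without overlap (log2 0.74, SE 0.103, edgeR adjusted p = 7.88e-06). In Ago2 null oocytes it rose 1.52-fold (edgeR adjusted p = 0.000222). Usp46, the second most abundant member per length, fell. It had 30198, 30643 and 29219 normalized counts in Ago2 fl/fl and 24028, 25243 and 24003 in Ago2 ADH libraries, a 1.23-fold fall (edgeR adjusted p = 1.82e-05), and fell 1.33-fold in Ago2 null oocytes (adjusted p = 9.23e-06). Neither was called in Dicer KO oocytes, where the log2 fold change was -0.18 for Usp12 (95% interval -0.45 to 0.09) and 0.13 for Usp46 (-0.02 to 0.27). Without Dicer KO replicate 3, its lowest library, the Usp46 difference was 0.21 and passed (adjusted p = 0.00789). As the level of Usp46 was 126 and that of Usp12 2.51 in Ago2 fl/fl oocytes, the rise of Usp12 to 4.06 in Ago2 ADH oocytes was small beside the fall of Usp46 to 99.6.

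Usp1 fell 1.16-fold in Ago2 ADH (edgeR adjusted p = 0.00385) and was also called in Ago2 null oocytes (log2 -0.23, adjusted p = 0.00932). The first call was lost without Ago2 ADH replicate 1 or Ago2 fl/fl replicate 2 or 3 (highest adjusted p = 0.0307, without Ago2 fl/fl replicate 2). The second was lost without Ago2 fl/fl replicate 2 or 3 or Ago2 null replicate 1 (adjusted p = 0.0662, 0.0418 and 0.0653) and with RLE normalization (adjusted p = 0.0107). The partner genes of these enzymes changed too. Wdr48 was lower in all 3 mutants, by 1.16-fold, 1.21-fold and 1.28-fold in the order Ago2 ADH, Ago2 null and Dicer KO. Wdr20 was lower by 1.43-fold, 1.56-fold and 1.38-fold (edgeR adjusted p = 2.72e-07, 6.24e-07 and 9.54e-06). Dmwd, a relative of Wdr20, was higher by 1.20-fold, 1.35-fold and 1.45-fold. Wdr48 and Wdr20 were thus lower in all 3 mutants, and Usp46 was called lower in the Ago2 mutants.

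The promoters of Usp12 and Usp46, from 250 bases before to 50 bases after the start of transcription as RefSeq gives it (GRCm38.p6), are both rich in CpG, with 37 and 38 CpG in 300 bases. They are shown because the pair changed in opposite directions while both promoters are rich in CpG and hold GC boxes. In sequence they were identical at only 148 of 323 aligned positions (45.8%), and the part of the promoters in the changes was not tested. They lie at chr5:146794907-146795206 and chr5:74068362-74068661 on the minus strand, and capitals mark the GC box GGGCGG or its reverse complement CCGCCC, which may overlap with itself.
Usp12 promoter: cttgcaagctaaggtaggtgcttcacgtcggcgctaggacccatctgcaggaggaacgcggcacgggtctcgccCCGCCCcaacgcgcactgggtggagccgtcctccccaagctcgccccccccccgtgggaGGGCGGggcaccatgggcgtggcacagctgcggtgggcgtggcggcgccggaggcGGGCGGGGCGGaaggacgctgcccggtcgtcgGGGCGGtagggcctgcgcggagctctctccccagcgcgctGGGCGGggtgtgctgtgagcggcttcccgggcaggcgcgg
Usp46 promoter: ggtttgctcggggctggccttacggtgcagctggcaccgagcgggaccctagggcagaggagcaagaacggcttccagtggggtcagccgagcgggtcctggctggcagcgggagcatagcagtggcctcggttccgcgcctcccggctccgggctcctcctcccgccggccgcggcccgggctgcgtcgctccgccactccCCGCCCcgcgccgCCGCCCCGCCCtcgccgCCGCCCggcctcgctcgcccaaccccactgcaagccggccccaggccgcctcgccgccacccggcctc

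Usp35, which has been linked to mitophagy, had the largest increase outside the Usp17l group. It had 52.5, 36.7 and 70 normalized counts in Ago2 fl/fl and 259, 142 and 229 in Ago2 ADH libraries, a 3.97-fold rise (log2 1.99, SE 0.271, edgeR adjusted p = 5.74e-06). In Ago2 null oocytes it had 214 and 193 and rose 3.69-fold (edgeR adjusted p = 2.67e-05). In Dicer KO oocytes it had 38.3, 68.4 and 52.9 against 64.6, 65 and 49.4, and the groups overlapped (log2 -0.17, 95% interval -0.85 to 0.51). Its 8 Ago2 libraries thus fell into 2 separate ranges by genotype, and its Dicer libraries did not. Even after the rise Usp35 remained scarce, at 0.981 ± 0.287 CPM per kilobase in Ago2 ADH oocytes.

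Usp25, an enzyme of immune signaling and a relative of Usp28, rose 2.32-fold in Ago2 ADH oocytes (145, 104 and 106 against 50.6, 57.2 and 44.6 normalized counts, edgeR adjusted p = 0.000726). In Ago2 null oocytes it rose 2.14-fold (edgeR adjusted p = 0.00511), a call lost when any of 4 single libraries was left out (highest adjusted p = 0.0599, without Ago2 null replicate 1). In Dicer KO oocytes the counts of 150, 64.6 and 132 overlapped with 68.3, 54.3 and 75.8 in WT (log2 0.81, edgeR adjusted p = 0.0343). Without Dicer KO replicate 2, its low library, the log2 fold change was 1.09 and passed (adjusted p = 0.00449). Usp28, with a level of 49.3 beside 0.204 for Usp25 in Ago2 fl/fl oocytes, was called in none of the comparisons, with log2 fold changes of -0.11, -0.20 and -0.08. The second (edgeR adjusted p = 0.0109) passed with DESeq2 (adjusted p = 0.00509). Usp40 rose 2.07-fold in Ago2 ADH oocytes (186, 141 and 218 against 66, 118 and 78.1 normalized counts, edgeR adjusted p = 0.00138), a call lost without Ago2 ADH replicate 3 (adjusted p = 0.0119).

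Of 7 members of the endosome, Golgi, endoplasmic reticulum and mitochondrion, 2, 3 and 3 were called lower in Ago2 ADH, Ago2 null and Dicer KO oocytes and none higher, where 19.8%, 18.7% and 17.6% of all genes were lower. Usp33, which acts on membrane receptors and their recycling, had 2760, 2915 and 2565 normalized counts in Ago2 fl/fl and 1894, 1870 and 1941 in Ago2 ADH libraries and fell 1.44-fold, 1.57-fold and 1.38-fold in the 3 mutants (edgeR adjusted p = 2.92e-06, 3.99e-06 and 6.53e-05). The gene model Gm43857 lies opposite to 35.3% of its transcript, and as reads were counted without strand, the 2 cannot be told apart there. Its relative Usp20 had log2 fold changes of -0.40 and -0.44 in the Ago2 mutants, which did not pass (edgeR adjusted p = 0.0139 and 0.0126), and 0.25 in Dicer KO oocytes. Usp6nl, the Rab GTPase-activating member, fell 1.39-fold, 1.60-fold and 1.66-fold (edgeR adjusted p = 0.00195, 0.000181 and 0.00094). The first of these calls was lost without Ago2 ADH replicate 2 (adjusted p = 0.0106). Usp30, which sits on mitochondria and opposes Parkin, was called in none, with log2 fold changes of -0.03, -0.14 and -0.08.

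Among the 5 members linked to RNA, 2, 3 and 3 were called lower in the same order and none higher, beside the same shares of all genes. Usp10, which binds the stress granule protein G3BP1, had 6198, 6193 and 6526 normalized counts in Ago2 fl/fl and 4886, 4933 and 4377 in Ago2 ADH libraries and fell 1.33-fold (edgeR adjusted p = 8.09e-06). It fell 1.35-fold in Ago2 null and 1.20-fold in Dicer KO oocytes, a call lost without Dicer KO replicate 3 (adjusted p = 0.0119). G3bp1 itself fell 1.27-fold in the ADH mutant and 1.42-fold in the Dicer mutant (edgeR adjusted p = 0.00782 and 0.00755) and was not called in Ago2 null oocytes. Usp39, the spliceosome member, was called lower in each mutant (log2 -0.33, -0.30 and -0.32). Its Ago2 null call was lost without any of 4 single libraries, Ago2 fl/fl replicates 1 and 3 and both Ago2 null replicates (highest adjusted p = 0.0182). Its Dicer KO call was lost without Dicer KO replicate 2 or 3 or Dicer WT replicate 1 or 3 (highest adjusted p = 0.0269).

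Usp11, a DNA repair enzyme of the set of relatives Usp4, Usp11 and Usp15, fell 1.48-fold in Ago2 null (1023 and 995 against 1519, 1452 and 1501 normalized counts, edgeR adjusted p = 6.22e-05) and 1.35-fold in Dicer KO oocytes (718, 548 and 566 against 810, 837 and 825, adjusted p = 0.0049). The Dicer KO call was lost when any of 5 single libraries was left out (adjusted p up to 0.0331, without Dicer KO replicate 2). In Ago2 ADH oocytes the log2 fold change was -0.20 and did not pass (edgeR adjusted p = 0.0517). Usp4 and Usp15 were called in none of the comparisons, with log2 fold changes between -0.22 and -0.01. Sart3, the gene of the U4/U6 snRNP protein that recruits both, was lower in all 3 mutants, by 1.27-fold, 1.35-fold and 1.39-fold.

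Of the 5 members of the cell cycle and DNA repair, 2 were called lower in Ago2 ADH, 2 in Ago2 null and 3 in Dicer KO oocytes, and none was called higher. In the same order, 19.8%, 18.7% and 17.6% of all genes tested were lower and 21.0%, 18.6% and 16.9% higher. Usp45, which acts with the ERCC1 repair nuclease, had 1654, 1864 and 1779 normalized counts in Ago2 fl/fl and 1321, 1266 and 1369 in Ago2 ADH libraries and fell 1.34-fold (edgeR adjusted p = 0.000146). Its Ago2 null call was lost without Ago2 fl/fl replicate 2 or 3 or either Ago2 null library (highest adjusted p = 0.034). Usp37, which acts on cyclin A, fell 1.25-fold in Ago2 null oocytes (5713 and 5870 against 7136, 7197 and 7444 normalized counts), and its log2 fold changes in Ago2 ADH and Dicer KO oocytes were -0.26 and -0.32. Usp48 was called in Dicer KO oocytes alone (log2 -0.28, edgeR adjusted p = 0.00282), a call lost without Dicer KO replicate 2 or 3 or Dicer WT replicate 3 (highest adjusted p = 0.0187), and the difference from Ago2 ADH oocytes was not called. Usp54, in no role group, fell 1.49-fold, 1.70-fold and 1.38-fold (edgeR adjusted p = 3.01e-07, 1.33e-07 and 0.00038).

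Among the 3 members that serve the proteasome and free ubiquitin chains, 1 call was made, in Dicer KO oocytes. Of all genes tested, 40.9%, 37.3% and 34.5% were called in either direction in Ago2 ADH, Ago2 null and Dicer KO oocytes. With 3 members these shares cannot be compared closely. Usp14, which sits on the proteasome and trims substrates there, rose 1.24-fold in Dicer KO oocytes (3360, 3258 and 3045 against 2749, 2463 and 2562 normalized counts, edgeR adjusted p = 0.00128), a call lost without Dicer WT replicate 2 (adjusted p = 0.0111). Thoc1 lies opposite to 45.9% of the Usp14 transcript, and without strand the reads of both genes there cannot be told apart. Usp5, which takes apart unanchored chains, and its relative Usp13 were called in none, although their log2 fold changes were negative throughout, from -0.20 to -0.29 for Usp5 and from -0.48 to -0.73 for Usp13. Usp13 was scarce, with a mean of 157 normalized counts in Ago2 fl/fl libraries. Without Ago2 fl/fl replicate 1 its decrease passed in both Ago2 mutants (adjusted p = 0.009 and 0.00999).

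Usp29, a paternally expressed gene of the imprinted Peg3 domain, was among the 2 largest called decreases in each mutant. It had 1656, 2045 and 1879 normalized counts in Ago2 fl/fl and 1085, 1042 and 1289 in Ago2 ADH libraries, a 1.64-fold fall (edgeR adjusted p = 4.39e-06). In Ago2 null oocytes it had 975 and 958 and fell 2.01-fold (edgeR adjusted p = 3.38e-07). In Dicer KO oocytes it had 852, 954 and 888 against 1610, 1642 and 1493 in WT and fell 1.76-fold (edgeR adjusted p = 3.33e-07). No mutant library reached its controls. The antisense gene Zim3 overlaps 34.2% of the Usp29 transcript, where reads of both are counted together. Usp26, an X-linked gene best known from the testis, was called in none, with log2 fold changes of 0.26, -0.10 and -0.10.

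The Usp17l genes of chromosome 7 made the largest fold changes of the family, from very few reads. They are the mouse DUB genes, first found as cytokine-induced in blood cells. The 5 copies are nearly the same at the cysteine window of 51 bases, which is shown because it lets one see how little sequence tells them apart. The windows lie at chr7:104860343-104860393 (Usp17la, plus strand), chr7:104841515-104841565 (Usp17lb, minus), chr7:103417653-103417703 (Usp17lc, plus), chr7:103251520-103251570 (Usp17ld, minus) and chr7:104769628-104769678 (Usp17le, minus) of GRCm38.p6, and capitals mark the cysteine codon.
Usp17la: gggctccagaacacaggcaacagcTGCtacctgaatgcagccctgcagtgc
Usp17lb: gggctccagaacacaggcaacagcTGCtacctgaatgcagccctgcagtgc
Usp17lc: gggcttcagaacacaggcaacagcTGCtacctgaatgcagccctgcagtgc
Usp17ld: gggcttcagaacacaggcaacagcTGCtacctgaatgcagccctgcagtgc
Usp17le: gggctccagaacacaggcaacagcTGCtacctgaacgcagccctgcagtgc

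Over the whole coding sequence Usp17lc and Usp17ld were identical at 98.4% of aligned positions, and the other pairs at 78.3% to 90.8%. Of the 50-base stretches of Usp17lc, 61.6% occur in another gene as well, and of those of Usp17la 20.4%. Reads that fit more than 1 of these genes are in the tally of reads with several alignments and not in the counts, so that the counts of the single copies are uncertain, and that of Usp17ld, at most 2 in a library, most of all.

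In raw counts Usp17le had 6, 0 and 4 in Ago2 fl/fl, 28, 49 and 47 in Ago2 ADH and 57 and 58 in Ago2 null libraries, and 3, 4 and 10 in Dicer WT and 73, 73 and 144 in Dicer KO libraries. Every mutant library lay above every control, and the rises were 13.9-fold, 17.7-fold and 21.1-fold (edgeR adjusted p = 8.37e-05, 0.00012 and 1.89e-07). Usp17lc had 1, 0 and 8 counts in Ago2 fl/fl, 17, 22 and 31 in Ago2 ADH, 42 and 48 in Ago2 null, 1, 7 and 0 in Dicer WT and 11, 24 and 65 in Dicer KO libraries. It rose 8.69-fold, 15.1-fold and 14.8-fold (edgeR adjusted p = 0.00273, 0.00076 and 0.000618). Both Usp17le and Usp17lc passed the filter on low counts through mutant libraries. Their p values and lack of overlap are therefore no further support for a difference. The Ago2 ADH call of Usp17lc was lost without Ago2 ADH replicate 3 or without Ago2 fl/fl replicate 1 or 2 (adjusted p = 0.023, 0.018 and 0.0134), and its Dicer KO call without Dicer KO replicate 3 (adjusted p = 0.01).

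Usp17la, the most abundant copy, had 13, 18 and 28 counts in Ago2 fl/fl, 44, 61 and 78 in Ago2 ADH, 66 and 94 in Ago2 null, 60, 50 and 54 in Dicer WT and 109, 85 and 170 in Dicer KO libraries. It rose 3.61-fold, 4.29-fold and 2.79-fold (edgeR adjusted p = 0.00131, 0.00075 and 0.000165). The Ago2 calls were lost without Ago2 ADH replicate 3 (adjusted p = 0.0173) and without Ago2 null replicate 2 (adjusted p = 0.0248). Usp17lb had 0 counts in all 3 Dicer WT libraries and 9, 8 and 17 in Dicer KO libraries, which is at least 13.9-fold higher against a floor of 3 counts over the group. Without any 1 of the Dicer WT libraries it was not tested. It had 2 counts over the Ago2 fl/fl libraries and 21 and 27 in Ago2 null libraries, a ratio of 37.8 after scaling to depth (95% exact interval 9.9 to 321, counting error only). In Ago2 ADH libraries it had 6, 16 and 11 counts and did not pass the filter. Usp17lb, Usp17lc and Usp17le passed the filter through mutant libraries, so that in their case a gene that was tested had to differ.

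Summed over the 5 copies, the Usp17l genes had 0.326 to 0.783 CPM in Ago2 fl/fl, 1.78 to 3.94 in Ago2 ADH and 3.41 to 4.42 in Ago2 null libraries. They had 1.5 to 1.66 in Dicer WT and 6.13 to 11.1 in Dicer KO libraries. The sum over libraries was 5.71-fold higher in Ago2 ADH (95% exact interval 4.48 to 7.34), 8.16-fold higher in Ago2 null (6.41 to 10.5) and 5.13-fold higher in Dicer KO oocytes (4.37 to 6.05), where the intervals cover counting error only. No mutant library overlapped with its controls. Reads with several alignments, the tally that reads shared by the copies go to, moved in the same direction, with 0.557 to 0.597 per count on transcripts in Ago2 fl/fl, 1.58 to 1.66 in Ago2 ADH, 1.57 to 1.66 in Ago2 null, 0.388 to 0.536 in Dicer WT and 0.939 to 1.19 in Dicer KO libraries, and their part in the Usp17l change was not tested.

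**Figure D3:**
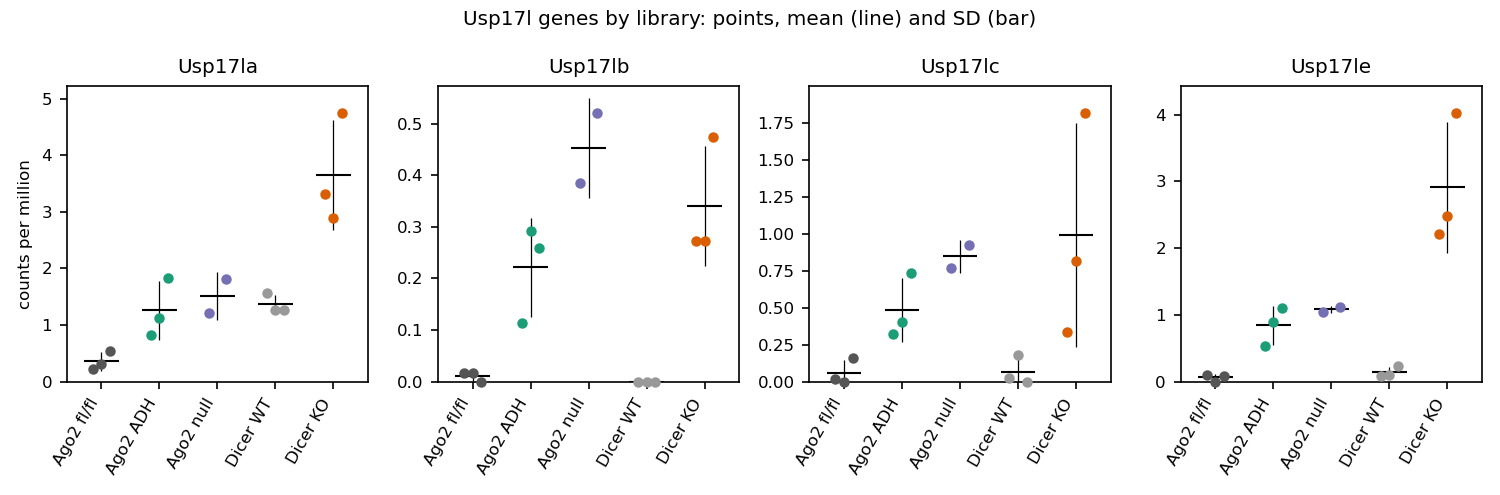
Levels of 4 Usp17l genes, in CPM, for each of the 14 libraries (points), with group means (lines) and SD (bars), n = 3 per group except 2 for Ago2 null. In each panel the mutant libraries lie above the controls of their own series, and Usp17lb has 0 counts in all 3 Dicer WT libraries.

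The promoters of Usp17la, Usp17lb and Usp17lc are shown because their counts were higher in the mutants. Usp17la and Usp17lb were identical at 75.5% of aligned promoter positions, Usp17la and Usp17lc at 71.4% and Usp17lb and Usp17lc at 57%, where Usp12 and Usp46 were at 45.8%. The promoter of Usp17ld, which had 0 to 2 counts and was not tested against the controls, was identical to that of Usp17lc at 83.5%, to that of Usp17la at 62.2% and to that of Usp17lb at 53% of positions. Those of Usp17la, Usp17lb and Usp17lc each hold 1 CpG and no GC box. They lie at chr7:104856766-104857065 (plus strand), chr7:104842534-104842833 (minus) and chr7:103416446-103416745 (plus) of GRCm38.p6, and capitals mark CCAAT or its reverse complement ATTGG, and TATAAA.
Usp17la promoter: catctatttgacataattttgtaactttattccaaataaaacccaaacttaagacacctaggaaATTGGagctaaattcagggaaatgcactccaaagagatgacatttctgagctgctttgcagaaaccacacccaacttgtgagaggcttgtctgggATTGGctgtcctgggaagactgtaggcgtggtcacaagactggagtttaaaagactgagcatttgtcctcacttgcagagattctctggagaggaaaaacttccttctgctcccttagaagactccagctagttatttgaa
Usp17lb promoter: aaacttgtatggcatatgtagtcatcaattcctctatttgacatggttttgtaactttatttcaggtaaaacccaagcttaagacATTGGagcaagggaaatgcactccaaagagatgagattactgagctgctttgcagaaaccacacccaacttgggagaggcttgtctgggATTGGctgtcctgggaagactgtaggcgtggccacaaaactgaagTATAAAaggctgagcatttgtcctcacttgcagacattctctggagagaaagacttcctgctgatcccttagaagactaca
Usp17lc promoter: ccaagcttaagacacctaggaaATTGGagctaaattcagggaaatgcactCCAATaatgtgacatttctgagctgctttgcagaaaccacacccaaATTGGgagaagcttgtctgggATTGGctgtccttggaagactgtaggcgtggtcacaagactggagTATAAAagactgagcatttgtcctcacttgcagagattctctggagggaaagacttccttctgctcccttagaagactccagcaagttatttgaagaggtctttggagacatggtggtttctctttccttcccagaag

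RefSeq gave a promoter window for 43 of the 56 members. The GC box (GGGCGG on either strand) stood in 27 of them (62.8%), where it stood in 35.7% of all 32851 windows of the same length. The members have a single window per gene, whereas the 32851 windows were limited neither to a single one per gene nor to genes detected in oocytes. CCAAT stood in 32.6% against 37.4%, TATAAA in 11.6% against 13.6% and the E box CACGTG in 11.6% against 7.15%. Among members called lower, 8 of 12 windows in Ago2 ADH, 12 of 17 in Ago2 null and 7 of 12 in Dicer KO oocytes held a GC box, and among members not called 17 of 21, 13 of 18 and 19 of 25. The transcripts called lower were somewhat longer, with a median of 4974, 4974 and 5607 bases in the order Ago2 ADH, Ago2 null and Dicer KO, than those not called, with 4604, 4512 and 4462 bases. Their median GC content was 47.3% in each comparison, against 49%, 49% and 48.5% of those not called. Members called higher, which include Usp17l genes, held a GC box in 2 of 7, 2 of 6 and 1 of 4 windows. The median length of these members was 3591, 2656 and 2656 bases and their median GC content 48.5%, 50.1% and 50.1%, in the same order. Such matches and medians describe the members and were not tested.

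A direct test asked which members respond differently to the loss of AGO2 cleavage and to the loss of DICER, with the difference of the 2 effects as the quantity. Of 53 Usp genes tested 5 were called, 2 with the higher and 3 with the lower effect in Ago2 ADH oocytes, or 9.43%, where 3.74% of all genes were (1.29% higher and 2.45% lower). Usp7 stood out among the abundant members. It had 20379, 20192 and 19915 normalized counts in Ago2 fl/fl and 17857, 17846 and 19057 in Ago2 ADH libraries (log2 -0.14, edgeR adjusted p = 0.0133, DESeq2 adjusted p = 0.0055), but 15075, 14055 and 14747 in Dicer WT and 22727, 21399 and 19550 in Dicer KO libraries, a 1.45-fold rise (adjusted p = 1.38e-06). The effects differed by -0.73 on the log2 scale (SE 0.0782, edgeR adjusted p = 1.32e-06). In Ago2 null oocytes Usp7 was called lower (log2 -0.18, edgeR adjusted p = 0.00887), the single member called in opposite directions in 2 mutants. That Ago2 null call was lost when any single library was left out (highest adjusted p = 0.0578, without Ago2 fl/fl replicate 2), while the Dicer KO rise was not.

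Usp46 differed by -0.47 (SE 0.0872, edgeR adjusted p = 0.00119) and Usp12 by 0.87 (SE 0.16, adjusted p = 0.0012). Usp35 differed by 2.10 (SE 0.418, edgeR adjusted p = 0.00225), a call lost without Ago2 ADH replicate 1, its highest library (log2 1.92, adjusted p = 0.013). Usp38 differed by -0.30 (SE 0.0677, edgeR adjusted p = 0.00598), from log2 fold changes of -0.08 in the ADH mutant and 0.18 in the Dicer mutant, neither of which passed (edgeR adjusted p = 0.181 and 0.0161), although the second did with DESeq2 (adjusted p = 0.00364). Of the 5 calls this was the least stable, since it was lost without any of 9 of the 12 libraries, with adjusted p between 0.0129 (without Ago2 ADH replicate 2) and 0.0232 (without Dicer WT replicate 2). The antisense gene model Gm9725 lies opposite to 24.9% of the Usp38 transcript.

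**Figure D4:**
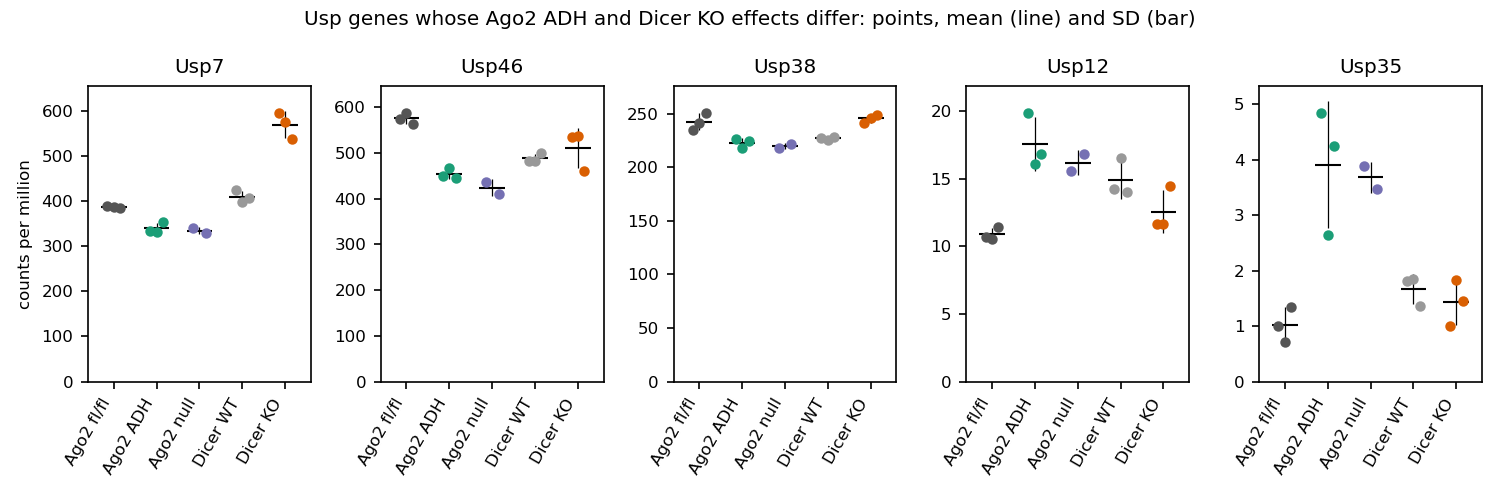
Levels of the 5 Usp genes whose Ago2 ADH and Dicer KO effects differed, in CPM, for each of the 14 libraries (points), with group means (lines) and SD (bars), n = 3 per group except 2 for Ago2 null. Usp7 rises in Dicer KO libraries and is somewhat lower in both Ago2 mutants, and Usp12 and Usp35 rise in the Ago2 mutants, where both differences from the Dicer effect passed at an FDR of 1%.

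Between Ago2 ADH and Ago2 null oocytes, which ask whether losing cleavage and losing the protein differ, no Usp gene was called. None of 54 tested passed at an FDR of 1% with edgeR or with DESeq2, where edgeR called 0.120% of all genes tested. At an unadjusted edgeR p below 0.05 there were 8 members. The share of all genes below that limit is not given here, so that the 8 are not read as an excess. These 8 were Usp8, Usp11, Usp24, Usp26, Usp27x, Usp29, Usp36 and Usp54, named after their values were seen, and all had the higher count in Ago2 ADH oocytes, by log2 0.16 to 0.35. The median log2 difference of the Usp genes was 0.05 and that of all genes -0.01. With 3 and 2 libraries the intervals are wide for the scarce genes, and the misses do not show that the 2 genotypes were the same.

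Of 36 other deubiquitinases tested in Ago2 ADH oocytes 5 were higher and 9 lower, of 36 in Ago2 null oocytes 7 were higher and 7 lower, and of 35 in Dicer KO oocytes 5 were higher and 4 lower, where 21.0%, 18.6% and 16.9% of all genes were higher and 19.8%, 18.7% and 17.6% lower. Of the 5 MINDY and ZUP1 enzymes, 4 were called lower in Ago2 ADH, 3 in Ago2 null and 2 in Dicer KO oocytes, and none was called higher. Atxn3, the gene of the Josephin enzyme ataxin-3, fell 1.60-fold, 1.67-fold and 1.44-fold in the 3 mutants. Cyld, which has the same protease fold and removes Lys63-linked and linear chains, rose in all of them, with 1025, 953 and 875 normalized counts in Ago2 ADH against 447, 433 and 536 in Ago2 fl/fl libraries. Its rises were 2.02-fold, 2.22-fold and 2.57-fold (edgeR adjusted p = 3.38e-07, 4.42e-07 and 1.42e-08).

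Uchl4, of the ubiquitin C-terminal hydrolase family, had by far the largest change among these genes. It had 164, 168 and 210 normalized counts in Ago2 fl/fl and 8809, 9405 and 8588 in Ago2 ADH libraries, a 49.7-fold rise (edgeR adjusted p = 1.12e-19), and rose 50.6-fold in Ago2 null and 57.1-fold in Dicer KO oocytes. It is closely related to Uchl3, and whether reads of the 2 were told apart was not checked. Uchl3 itself fell 1.21-fold in Ago2 ADH and rose 1.33-fold in Dicer KO oocytes, and the difference of these effects, -0.74 on the log2 scale, was called (edgeR adjusted p = 0.000121). The remaining leaders were Otud3 with 1.56-fold and 1.54-fold rises in Ago2 ADH and Dicer KO oocytes, Otulin with a 1.60-fold rise and Vcpip1 with a 1.41-fold fall in Ago2 null oocytes, Mindy2 with a 1.85-fold fall in Ago2 ADH oocytes and Josd1 with a 1.51-fold fall in Dicer KO oocytes.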

How the data were processed

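Amplified cDNA of 14 oocyte libraries was sequenced. The authors aligned reads to mm10 with TopHat2 2.0.7, keeping up to 100 alignments per read, and deposited one table per library of raw counts per RefSeq transcript from HTSeq 0.6.1, without strand; reads with several alignments are in a separate tally. Their notes also name DESeq 1.10.0, whose output is not used here. The methods give separate alignment options for shorter and for longer reads and do not name the libraries of each kind. The part of read length in the differences between libraries was not tested.

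Of 26495 transcripts, 26081 were paired with a symbol by RefSeq, 113 by GENCODE and 301 not at all. All transcripts were fitted with edgeR 4.0.16 in R 4.3.3 (quasi-likelihood test, TMM normalization, at least 10 counts in enough libraries and 15 in all, Benjamini-Hochberg adjustment, FDR of 1%). The 5 comparisons used the libraries of their own groups, with 1 fit of 12 libraries for the difference of the Ago2 ADH and Dicer KO effects. The steps were tested on simulated data. SE values are the log2 fold change divided by the root of the F statistic. Intervals of log2 fold changes were built from these SE values and so include the spread between libraries. Exact intervals of count ratios and the floor of 3 counts cover counting error only, since reads were amplified without molecular identifiers. Each library pools mice, and p-values measure the spread between such pools. Python 3.11.15, pandas 2.3.3, Biopython 1.88 and matplotlib 3.10.9 made tables, alignments and plots.

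Named are the 8 largest called increases and decreases per mutant, members whose effects differed or were called in opposite directions, the 8 highest levels, sets of relatives, members that failed the filter, and the 3 largest called changes each way among other deubiquitinase and partner genes. Usp1, Usp26, Usp30, Usp37, Usp39, Usp48 and Usp49, and Wdr48, Dmwd and Sart3, were named to describe their groups after their values were seen. Members and lists were chosen with earlier results of these data known. Alternatives were RLE normalization, DESeq2 1.42.0, other filters, an FDR of 5%, 1 transcript per gene, summed transcripts, all libraries in one fit, a replicate block and leaving out each library.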

Additional observations from a re-analysis of the deposited data

Results flagged for a closer look

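For 5 members the effect in Ago2 ADH oocytes differed from that in Dicer KO oocytes by the test of the difference itself. On the log2 scale the difference was 0.87 for Usp12 and 2.10 for Usp35, and it was -0.30 for Usp38, -0.47 for Usp46 and -0.73 for Usp7. The edgeR adjusted p was 0.0012, 0.00225, 0.00598, 0.00119 and 1.32e-06 in that order. Each Dicer library had a lane of its own and each Ago2 genotype had its own lane, and the part of lane in these differences was not tested.

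A signal also stood in the tally of reads with several alignments, which no comparison of genes used. Its mean per count on transcripts was 1.61 in Ago2 ADH, 1.61 in Ago2 null and 1.03 in Dicer KO libraries, against 0.572 in Ago2 fl/fl and 0.458 in Dicer WT libraries, and every mutant library lay above its controls. The 2-sided exact permutation p was 0.1, 0.2 and 0.1, the smallest these numbers of libraries allow.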

How the results depend on the processing

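Across all alternatives, for every called member and the uncalled members named, the log2 fold change kept direction and side of the threshold in 1818 cases, lost the call in 108, gained it in 49 and changed sign in 10. Of 82 calls of members, the difference of effects included, 55 passed in every leave-out that tested them and 27 were lost in at least 1. Leaving out single libraries, the Ago2 ADH comparison gave 5 to 9 higher and 14 to 19 lower members, and the low value of 5, without Ago2 ADH replicate 3, lost Usp17la, Usp17lc and Usp40. Ago2 null gave 5 to 8 higher and 14 to 18 lower, with a lone null library assumed to vary like the other groups, Dicer KO 5 to 7 and 13 to 16, Ago2 ADH against null 0 throughout, and the difference of effects 1 to 2 higher and 2 to 3 lower, the 1 being without Ago2 ADH replicate 1. Same-numbered libraries did not deviate together (r from -0.126 to 0.0408), so that the numbers do not pair the samples. With the replicate block 13 rather than 21 members were lower in Ago2 null oocytes, without Usp1, Usp2, Usp7, Usp24, Usp32, Usp34, Usp39 and Usp45, and other counts of calls stayed within 1.5 times. The cause was not tested. Signs changed for uncalled values near 0. Over the fits that left out a library, the log2 fold change in Ago2 ADH ranged from -0.04 to 0.02 for Usp15 (0.00 with at least 10 counts in every library), -0.06 to 0.03 for Usp19 and -0.19 to 0.06 for Usp22. For Usp19 it ranged from -0.07 to 0.02 in Ago2 null and -0.11 to 0.01 in Dicer KO, and in Dicer KO from -0.38 to 0.02 for Usp35 and -0.10 to 0.10 for Usp49. No leave-out kept 3 calls, those of Usp49 in Ago2 ADH and of Usp7 and Usp34 in Ago2 null. Usp49 was also lost with the replicate block, with at least 10 counts in every library and with summed transcripts (adjusted p = 0.0125, 0.0102 and 0.0102). Usp38 in the difference of effects was lost with RLE (adjusted p = 0.0173). Usp1 in Ago2 null was lost with RLE, at least 10 counts, summed transcripts and the block (adjusted p = 0.0107, 0.0158, 0.0113 and 0.0615). In Ago2 ADH, Usp53 was lost in 4 leave-outs (highest adjusted p = 0.0424), and in Ago2 null Usp2 was in 4 and Usp24 and Usp32 in 3 each (0.0537, 0.047 and 0.0276). Depth limits the Usp17l genes, with 0 to 28 counts per Ago2 fl/fl library.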
